A study of Homo sapiens with 6 samples.

Results

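The genes described here are 33 interferon-stimulated and antigen presentation genes, of 20660 gene names in the authors' deposited table. They were taken by name, and all rows of a name were summed. Gene expression was measured by RNA sequencing of ribosome-depleted total RNA in FaDu, a widely used cell line grown from a hypopharyngeal squamous carcinoma. One group received BB608, which the labels name only by this code, and the other its vehicle DMSO, with 3 biological replicates each per the series' design text. The series asks how BB608 affects gene expression in a cell line of head and neck cancer. Neither dose nor treatment time is stated in the labels, no interferon treatment is named, and both groups are of 1 cell line. The table gives 1 FPKM value (fragments scaled to transcript length and library size) per coding sequence and group. Each value is pooled over libraries of a group, so no spread over libraries and no depth can be given. The table calls both groups a subset without saying of what, so it is not known whether a value covers all 3 libraries.

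Interferons bind receptors on the cell surface and activate JAK kinases, which phosphorylate transcription factors such as STAT2. A complex that holds STAT2 and IRF9 binds the interferon-stimulated response element (ISRE) in promoters. The GAS element is the one used mainly after interferon gamma. The genes switched on encode sensors of viral RNA, proteins that block viral replication, and the proteasome, transporter and MHC class I proteins that present peptides to T cells. Carcinoma lines often express part of this set without added interferon.

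None of the 67 tested coding sequences, in 29 of the 33 genes, passed the authors' q of 0.05, beside 0.354% of all tested coding sequences. A count of 0 is close to that background. Most of the set was expressed: 29 genes had a tested coding sequence and a gene sum, the FPKM summed over a gene's coding sequences, of 1 FPKM or more in either group. The gene sums of 24 of these 29 (82.8%) were within 0.25 log2 of each other in DMSO and BB608, as were those of 70.1% of all genes kept by the same filter. The lowest unadjusted p-values belonged to single coding sequences of MX1, BST2, IRF1 and DDX58, 2 higher and 2 lower in BB608, and the authors' deposited table gives each a q of 0.997. None of the 9 interferon ligands that were looked up and found reached 1 FPKM in either group. In such bulk samples, fewer cells that express a gene and less RNA per cell cannot be told apart.

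Many promoters of these genes hold the elements through which interferons act, and 10 stretches are shown here to let the genes be read beside their values. They come from RefSeq promoters of build GRCh38.p14, which span 250 bases before to 50 bases after a start, and 28 of the 33 genes matched, DDX58 under its newer symbol RIGI. Each stretch is on the gene's own strand, 5′ to 3′, and ends before the start. Capitals mark 2 cores on either strand, merged where they overlap. The ISRE core is GAAA, any 2 bases and GAAA again, and the GAS core is TTCNNNGAA. The 10 genes cover the roles described here except that of the dynamin-like GTPases MX1, MX2 and GBP1. All 10 stretches hold a match before the start, so they do not stand for all 28 matched genes.
IFIH1 (chr2:162318685-162318858, minus strand): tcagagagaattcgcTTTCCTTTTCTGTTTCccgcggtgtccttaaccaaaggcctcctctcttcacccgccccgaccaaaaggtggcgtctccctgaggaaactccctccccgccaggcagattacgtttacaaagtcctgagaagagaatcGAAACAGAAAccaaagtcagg
IRF1 (chr5:132490874-132490912, minus strand): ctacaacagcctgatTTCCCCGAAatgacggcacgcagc
IFIT1 (chr10:89392492-89392544, plus strand): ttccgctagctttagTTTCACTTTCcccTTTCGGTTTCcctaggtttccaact
OAS3 (chr12:112938316-112938473, plus strand): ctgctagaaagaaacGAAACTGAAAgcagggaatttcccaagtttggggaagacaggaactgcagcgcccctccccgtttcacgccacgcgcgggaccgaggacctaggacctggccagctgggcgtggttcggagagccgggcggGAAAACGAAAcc
BST2 (chr19:17405665-17405781, minus strand): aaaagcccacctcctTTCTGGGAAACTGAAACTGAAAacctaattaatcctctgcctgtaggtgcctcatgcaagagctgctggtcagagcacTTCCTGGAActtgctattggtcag
IFI6 (chr1:27672261-27672363, minus strand): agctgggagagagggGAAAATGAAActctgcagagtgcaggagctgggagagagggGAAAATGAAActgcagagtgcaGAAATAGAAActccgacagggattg
ISG15 (chr1:1013369-1013414, plus strand): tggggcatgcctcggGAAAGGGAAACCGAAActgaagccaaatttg
CXCL10 (chr4:76023694-76023733, minus strand): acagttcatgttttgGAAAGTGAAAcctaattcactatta
TAP1 (chr6:32853808-32853853, minus strand): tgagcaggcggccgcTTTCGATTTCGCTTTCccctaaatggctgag
B2M (chr15:44711358-44711403, plus strand): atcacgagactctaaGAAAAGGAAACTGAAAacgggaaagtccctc
In IFIT1, TAP1 and the upstream pair of IFIH1 the ISRE cores lie on the opposite strand, so that they read as TTTC, any 2 bases and TTTC. ISG15, B2M, TAP1, BST2 and IFIH1 each hold a pair of overlapping ISRE cores, and BST2 also holds GAS cores, of which 1 overlaps an ISRE core. In IRF1, the GAS core was the only match of the ISRE and GAS cores.

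Among the 28 matched genes, 19 (67.9%) had an ISRE core in at least 1 listed promoter, against 4.38% of all 27305 genes with a listed promoter. The GAS core was found in 9 of the 28 (32.1%), against 9.38% of all genes. The short NF-kB core, GGG and CC with any 5 bases between them, was found in 20 of the 28 (71.4%) and in 61.7% of all genes, so it hardly separates them. Genes with more listed starts had more chances of a match, and the members were chosen as known interferon targets, so these shares are a description. The 17 genes with an ISRE core that were expressed at 1 FPKM or more had a median log2 fold of 0.01, BB608 over DMSO, and 9 were higher in BB608. For the 8 matched genes without this core, the median was -0.01 and 3 were higher. Both groups of genes were thus spread around 0, from -0.81 to 0.47 with the core and from -0.38 to 0.34 without it.

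**Figure D1:**
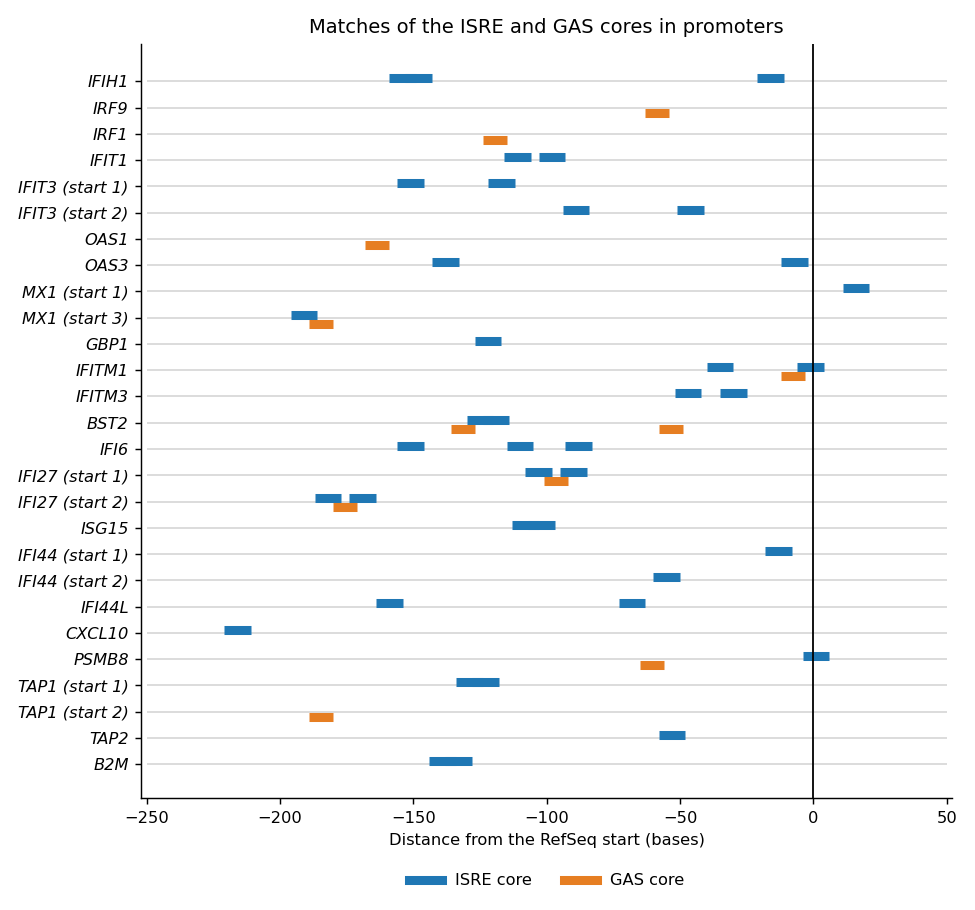
Position of ISRE cores (blue) and GAS cores (orange) relative to the RefSeq start, in bases, for each promoter that holds a match of either core. Promoters without such a match are not drawn. Grey lines span the 300 bases searched, and numbered starts are different promoters of 1 gene. Most matches lie before the start, and ISRE cores of B2M, TAP1, ISG15, BST2 and IFIH1 overlap in pairs.

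The baseline differed widely between genes. B2M, the invariant light chain of MHC class I, had a gene sum of 1397 FPKM in DMSO and 1181 FPKM in BB608, at percentile 99.6 of the 10859 genes kept by the same filter. HLA-C, a class I heavy chain, had 194 and 207 FPKM. IFI44 had 47.9 and 50.2 FPKM and was the highest of the interferon-stimulated genes outside antigen presentation. At the other end, MX2 had 0.149 and 0.148 FPKM, XAF1 0.192 and 0.152 FPKM, CXCL10 0.244 and 0.0429 FPKM and IFI44L 0.581 and 0.939 FPKM. None of these 4 genes had a tested coding sequence, so no fold is given for them. IFI44 and IFI44L were thus expressed at very different levels, although they lie next to each other and both have ISRE cores in their promoters. The order of genes with similar levels is not tested, since there is no spread over libraries.

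**Figure D2:**
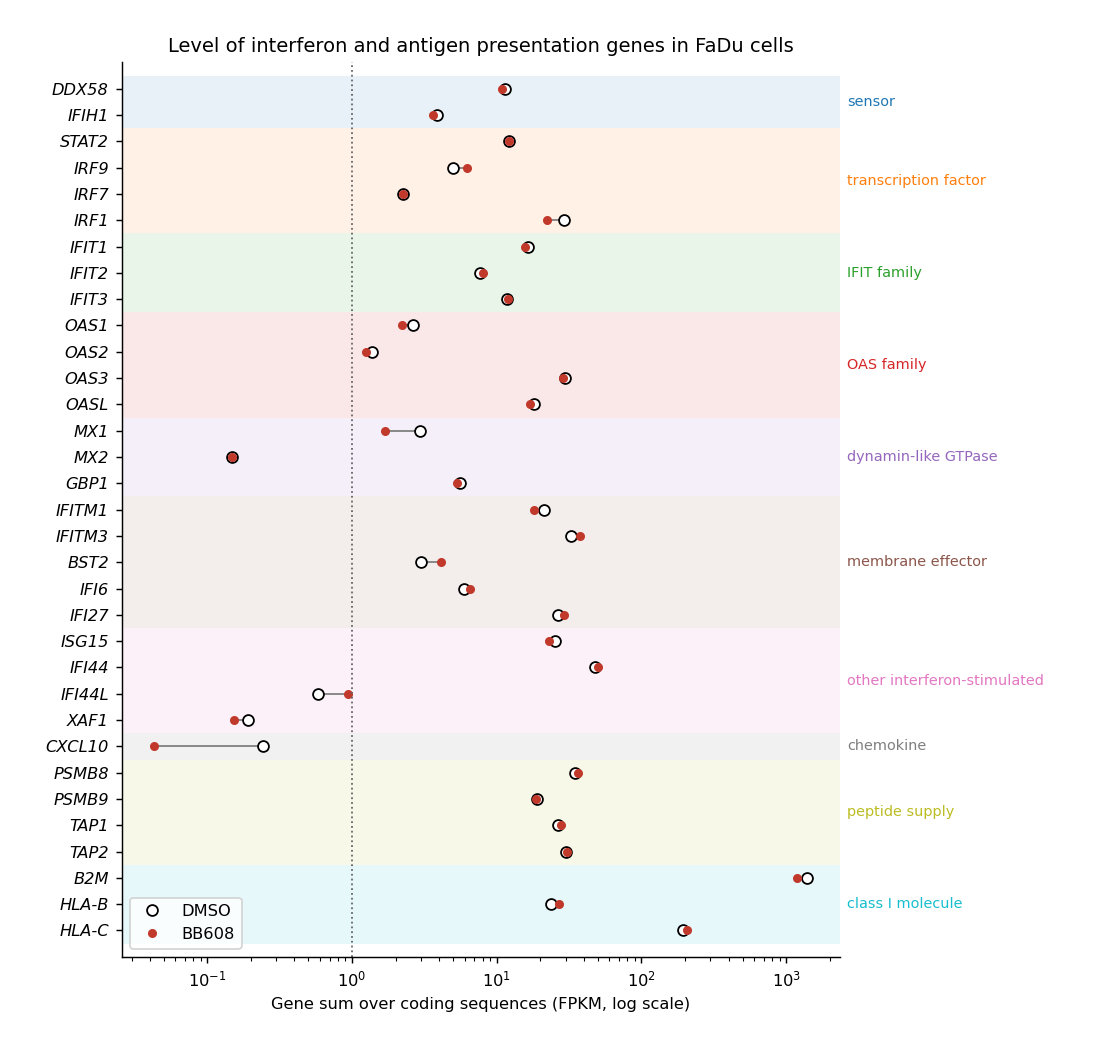
Gene sums in FPKM on a log scale for the 33 genes, grouped by role, with open circles for DMSO and filled red circles for BB608, each 1 value pooled by the authors. The dotted line is 1 FPKM. B2M and HLA-C lie far above the rest, and MX2, XAF1, CXCL10 and IFI44L lie below the line in both groups.

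Over the 29 expressed genes, 13 were higher and 16 lower in BB608, with a median log2 fold of the gene sums of -0.01 and quartiles of -0.10 and 0.07. Of all 10859 kept genes, 57.6% were higher in BB608, and their median was 0.03, with quartiles of -0.09 and 0.18. A gene sum at least 0.5 log2 apart was found for 1 of the 29 genes, MX1, and for 11.6% of all kept genes. The tested coding sequences numbered 67, of 137 in the table for these genes. None of the 67 had a q under 0.05 in the authors' deposited table, where 0.354% of all tested coding sequences did. A count of 0 among 67 is close to that background and says little about the set. Below an unadjusted p of 0.05 the authors' deposited table held 4 of the 67 (5.97%), against 3.31% of all tested coding sequences. Counted by gene, these were 4 of 29 (13.8%), against 9.49% of all genes with a tested coding sequence.

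**Figure D3:**
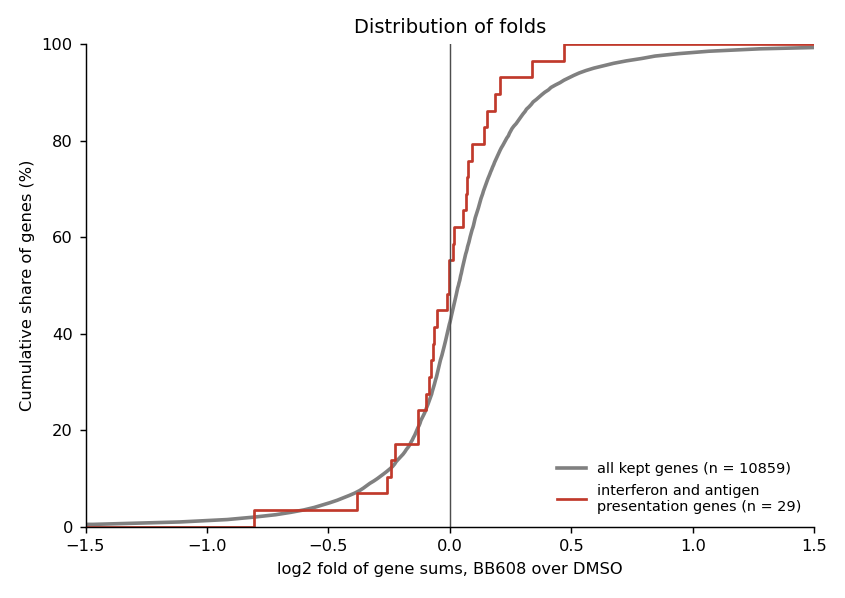
Cumulative share of genes, in percent, against the log2 fold of gene sums, BB608 over DMSO, for the 29 expressed genes (red steps) and all 10859 kept genes (grey line); folds beyond 1.5 log2 either way are not drawn. The red steps pass 0 near the middle, at a median of -0.01, beside 0.03 for all kept genes.

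The precision of a missed call was read from an error that the authors' statistic and p imply for each coding sequence, called the implied SE here. For the most abundant tested coding sequence of 28 genes, the implied SE had a median of 0.22 and ran from 0.12 to 1.66 log2. The approximate 95% interval from it lay within 1 log2 either side of 0 for 20 of the 28 genes. It lay within 0.5 log2 for 8 of them, namely DDX58, IFIH1, IFIT3, OAS3, GBP1, TAP1, TAP2 and HLA-C. For STAT2, IRF9, IRF7, OAS1, OAS2, IFI6, IFI27 and ISG15 the interval reached 1 log2, so a change of that size is not excluded there. MX1 had no usable implied SE. These intervals are for a coding sequence, and no error could be derived for a gene sum.

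**Figure D4:**
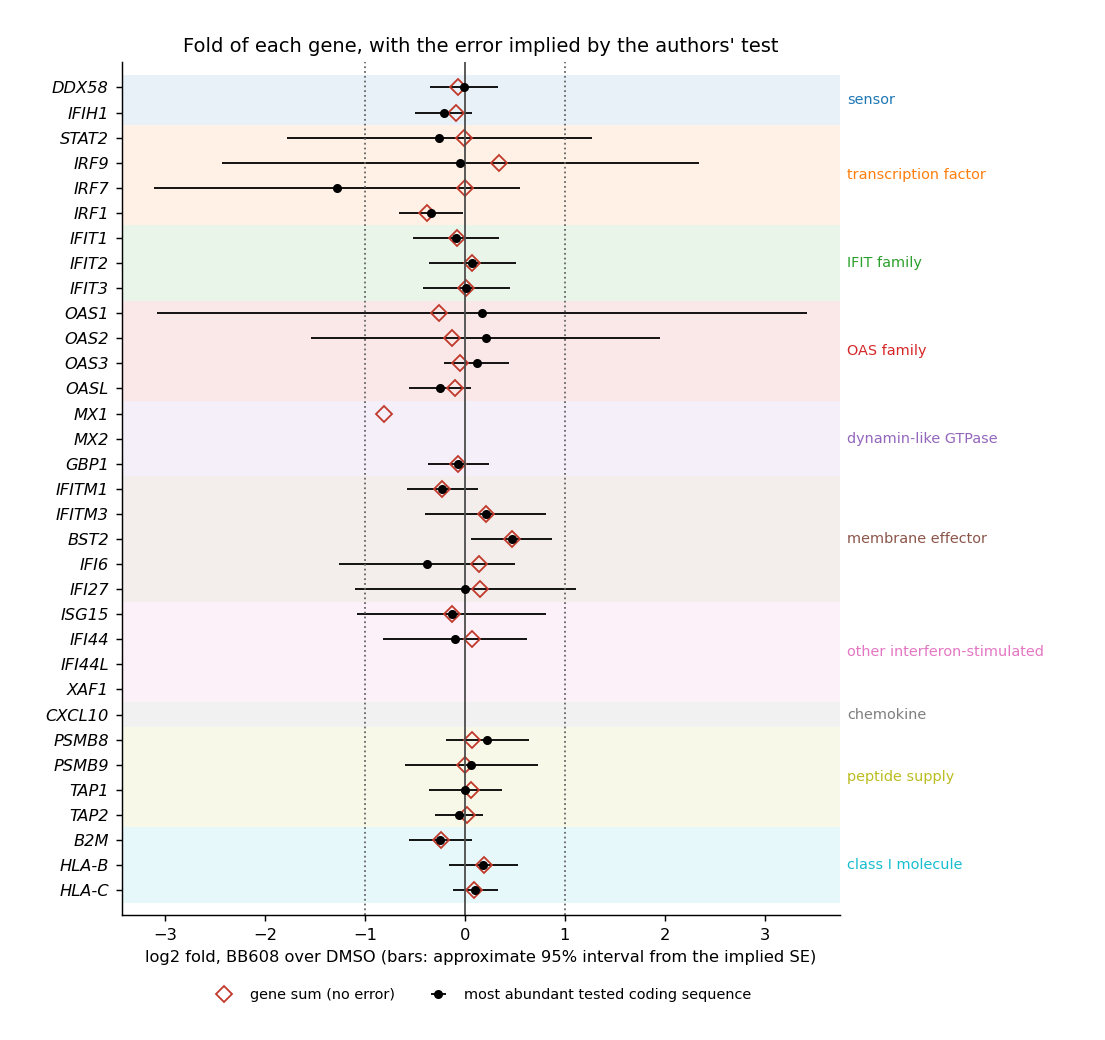
log2 fold, BB608 over DMSO, of the most abundant tested coding sequence (black points, bars are the approximate 95% interval from the implied SE) and of the gene sum (red diamonds, with no error), grouped by role; dotted lines mark 1 log2 either way. All intervals but those of IRF1 and BST2 include 0, and MX1 has a gene sum only.

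The 2 cytosolic sensors of viral RNA lay at percentiles 48.7 (DDX58) and 22.7 (IFIH1) of the levels of kept genes. DDX58, which encodes RIG-I, had a gene sum of 11.4 FPKM in DMSO and 10.9 FPKM in BB608, a log2 fold of -0.07. Its most abundant tested coding sequence had 5.30 and 5.26 FPKM, a log2 fold of -0.01 with an approximate 95% interval of -0.35 to 0.33. IFIH1, which encodes MDA5, had a gene sum of 3.86 and 3.64 FPKM. For its 1 tested coding sequence the authors' deposited table gives a p of 0.141, at a log2 fold of -0.21 (implied SE 0.15).

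Among the transcription factors, STAT2, a subunit of the ISRE-binding complex, had 12.2 and 12.1 FPKM, a log2 fold of -0.01 for the gene sum. Its tested coding sequences went both ways, 2 higher and 2 lower, and the most abundant one had -0.26 (implied SE 0.78). IRF9, the DNA-binding subunit of that complex, had 4.96 FPKM in DMSO and 6.27 FPKM in BB608, a log2 fold of 0.34. Part of this came from a coding sequence with 2.01e-08 FPKM in DMSO against 0.891 FPKM in BB608, while the most abundant one had -0.05 (implied SE 1.22). IRF7, the factor that amplifies interferon production, had a gene sum of 2.26 and 2.25 FPKM. Its 3 tested coding sequences did not move together: 1 had 1.18 and 0.487 FPKM, another 0.908 and 0.451 FPKM, and the third 0.172 and 0.888 FPKM. Their implied SEs ran from 0.93 to 1.63. The near-equal sums of IRF7 also rested on untested coding sequences, such as 1 with 6.58e-66 FPKM in DMSO against 0.316 FPKM in BB608. With tested coding sequences only, the log2 fold of IRF7 was -0.31.

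IRF1, a factor induced by interferon gamma through the GAS core shown above, was lower in BB608 in its gene sum, at 29.1 and 22.4 FPKM, a log2 fold of -0.38. Of its 4 tested coding sequences 3 were lower. The most abundant one had 18.8 FPKM in DMSO and 14.8 FPKM in BB608, a log2 fold of -0.34 (implied SE 0.16). In the authors' deposited table its unadjusted p was 0.0382 and its q 0.997, and its approximate 95% interval ran from -0.66 to -0.02. The IRF1 locus is chr5:131817245-131826490 of hg19, the build of the deposited coordinates.

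The IFIT genes, whose proteins act against the translation of viral RNA, share 1 deposited locus, chr10:90973325-91180758 of hg19. IFIT1 had 16.6 FPKM in DMSO and 15.7 FPKM in BB608, IFIT2 7.66 and 8.07 FPKM, and IFIT3 11.8 and 11.9 FPKM. The log2 folds of these gene sums were -0.08, 0.07 and 0.01, that of IFIT3 changing sign to -0.02 when the median log2 ratio of all kept genes was set to 0. Each had 1 tested coding sequence, with implied SEs of 0.22, so the 3 genes lay within 1 implied SE of 0.

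The OAS genes encode sensors of double-stranded RNA, of which OAS1, OAS2 and OAS3 make the oligoadenylates that activate RNase L. OAS3 was the most abundant at 29.8 and 28.7 FPKM, followed by OASL, a related protein without that activity in humans, at 18.1 and 16.9 FPKM. OAS1 had 2.65 and 2.21 FPKM, and OAS2 1.37 and 1.25 FPKM. All 4 gene sums were lower in BB608, by log2 folds of -0.05 to -0.26. The most abundant tested coding sequences of OAS1, OAS2 and OAS3 were higher, at 0.17, 0.21 and 0.12, so these gene sums set no direction for the family. That of OASL was lower, at -0.25 (implied SE 0.16), with a p of 0.116 in the authors' deposited table. OAS1, OAS2 and OAS3 share the locus chr12:113344581-113455556 of hg19.

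Among the dynamin-like GTPases, which restrict viruses and other intracellular pathogens, MX1 had the widest apart gene sums of the 29 genes, with 2.94 FPKM in DMSO against 1.68 FPKM in BB608, a log2 fold of -0.81. This came from 1 coding sequence with 1.87 FPKM in DMSO against 6.81e-15 FPKM in BB608, with a p of 0.23 in the authors' deposited table. Without the MX1 coding sequences under 0.001 FPKM in 1 group, this one included, the gene sum had a log2 fold of 0.65. The other tested coding sequence was higher in BB608, at 0.624 and 1.18 FPKM, a log2 fold of 0.92 (implied SE 0.38). In the authors' deposited table it had an unadjusted p of 0.0245, q 0.997. The 2 tested sequences of MX1 therefore moved in opposite directions, both at low FPKM. GBP1, a target of interferon gamma, had 5.56 and 5.31 FPKM, a log2 fold of -0.07 (implied SE 0.15).

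Of the effectors in membranes, 4 of 5 gene sums were higher in BB608, beside 57.6% of all kept genes, also with the median log2 ratio set to 0 and after quantile normalization. By the most abundant tested coding sequence, IFI6 was lower, at -0.38, and IFI27 had 0.0033. BST2, or tetherin, which holds budding viruses at the cell surface, had 2.99 FPKM in DMSO and 4.14 FPKM in BB608 in its 1 coding sequence. This is a log2 fold of 0.47 (implied SE 0.21), for which the authors' deposited table gives an unadjusted p of 0.0257, q 0.997. Its approximate 95% interval was 0.06 to 0.87, and its locus is chr19:17513747-17516457 of hg19. IFITM1 and IFITM3, which block entry of viruses through membranes, lay on either side of 0. IFITM1 had 21.1 and 18.0 FPKM, a log2 fold of -0.23 (implied SE 0.18), and IFITM3 had 32.4 and 37.3 FPKM, a log2 fold of 0.21 (implied SE 0.31). IFITM genes are similar in sequence and share reads, so the value of each is uncertain. IFI27 had 26.5 and 29.4 FPKM, a log2 fold of 0.15 for the gene sum. IFI6, a mitochondrial and ER membrane protein, had 5.93 and 6.54 FPKM, but its more abundant coding sequence was lower, at 4.57 and 3.51 FPKM, and the other higher, at 1.36 and 3.03 FPKM.

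ISG15, a ubiquitin-like modifier, had 25.1 FPKM in DMSO and 22.9 FPKM in BB608 in its 1 coding sequence, a log2 fold of -0.13 (implied SE 0.48). The tested coding sequences of IFI44 had 20.3 and 18.9 FPKM, 15.3 and 15.1 FPKM, and 12.1 and 15.8 FPKM. In all, 17 of the 18 genes with several tested coding sequences had sequences of both directions. TAP1 was the exception, with both of its sequences higher.

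The gene sums of the genes that supply peptides to MHC class I differed little between the groups. PSMB8 and PSMB9, catalytic subunits of the immunoproteasome, had 34.6 and 36.4 FPKM and 18.8 and 18.8 FPKM. TAP1 and TAP2, the 2 subunits of the transporter that carries peptides into the endoplasmic reticulum, had 26.6 and 27.7 FPKM and 30.0 and 30.4 FPKM. The 4 log2 folds of these gene sums ran from -0.0045 to 0.07. Single coding sequences were less even. A minor one of PSMB8 had 4.35 and 1.04 FPKM, or -2.07 log2 (implied SE 1.37), beside 0.22 for the most abundant one. A minor one of PSMB9 had -0.71 (implied SE 1.15), beside 0.06 for the most abundant one. The most abundant tested coding sequence of TAP2 had an approximate 95% interval of -0.30 to 0.18, among the narrowest of the set. PSMB8, PSMB9 and TAP1 share the deposited locus chr6:32808493-32847625 of hg19.

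Of the class I molecules, HLA-B had 23.6 FPKM in DMSO and 26.8 FPKM in BB608, and HLA-C 194 and 207 FPKM, log2 folds of 0.19 and 0.09. The HLA-C coding sequence that carried 98.9% of its sum in DMSO had an approximate 95% interval of -0.12 to 0.33. B2M was lower, at a log2 fold of -0.24 for its gene sum, and 4 of its 5 tested coding sequences were lower. Its most abundant coding sequence had 933 and 786 FPKM, or -0.25 log2 (implied SE 0.16), with a p of 0.124 in the authors' deposited table. The light chain and the heavy chains thus lay on different sides of 0, none of them past the threshold. HLA genes are near-identical to each other and vary between people, and reads placed on a reference can be lost or shared, so their levels are uncertain.

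**Figure D5:**
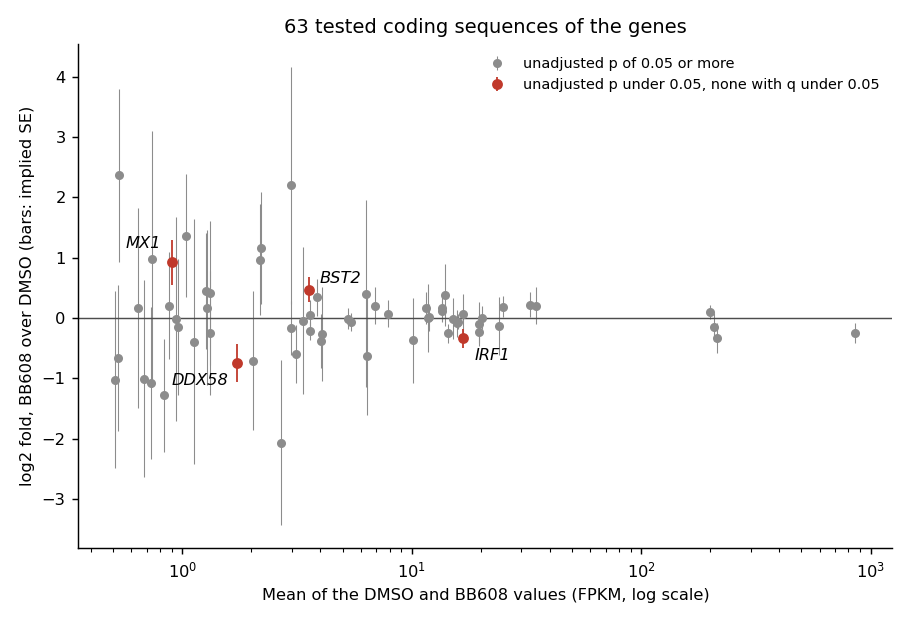
log2 fold, BB608 over DMSO, against the mean FPKM of both groups (log scale) for 63 tested coding sequences of the genes; bars are the implied SE, and the 4 sequences under 0.001 FPKM in 1 group are not drawn. The 4 red points, of MX1, BST2, IRF1 and DDX58, have an unadjusted p under 0.05, and folds spread more widely at low FPKM.

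The 4 coding sequences at an unadjusted p under 0.05 belonged to different roles and to both directions. Beside MX1, BST2 and IRF1, the fourth was a minor coding sequence of DDX58, with 2.17 FPKM in DMSO against 1.29 FPKM in BB608. Its log2 fold was -0.74 (implied SE 0.32), and the authors' deposited table gives an unadjusted p of 0.0393, q 0.997. The 2 other tested coding sequences of DDX58 had log2 folds of -0.01 and 0.06.

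Genes around the set were also counted, from 5 lists of interferon receptors and signalling, ligands, sensing, other induced genes and antigen presentation. Of their 299 tested coding sequences none rose and none fell past the authors' q in the authors' deposited table, beside 0.354% of all tested coding sequences. Below an unadjusted p of 0.05 by Cuffdiff there were 8 (2.68%, against 3.31% of all tested coding sequences), 2 higher and 6 lower, in 7 genes. Of 83 expressed genes in these lists, 43 were higher and 40 lower in BB608, with a median log2 fold of 0.01. Of all kept genes, 57.6% were higher, with a median of 0.03.

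Of the 13 receptor and signalling genes reported here, 12 were expressed. Among these 12, 10 were higher in BB608, with a median log2 fold of 0.08, beside 57.6% and 0.03 for all kept genes. With the median log2 ratio of all kept genes set to 0, 7 of the 12 were higher, and no coding sequence passed the q in the authors' deposited table. The phosphatase gene PTPN2 had 67.1 and 75.3 FPKM, and the interferon gamma receptor subunits IFNGR2 and IFNGR1 57.6 and 52.5 FPKM and 50.3 and 50.9 FPKM. IFNAR2, a subunit of the type I interferon receptor, had a minor coding sequence at 0.00924 and 0.679 FPKM (p 0.0172, q 0.997) in the authors' deposited table. Among the ligands, IFNE had the highest sum, at 0.924 and 0.918 FPKM, 4 of 9 were listed at 0 in both groups, and the only tested coding sequence was not called.

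Of 15 expressed sensing genes 8 were higher and 7 lower, led in level by the RNA-editing enzyme gene ADAR at 55.3 and 58.3 FPKM, IFI16 at 39.0 and 31.7 FPKM and the kinase gene EIF2AK2 at 31.0 and 32.4 FPKM. RNF135, a ubiquitin ligase for RIG-I, had a coding sequence at 1.80 and 1.03 FPKM, or -0.80 log2 (implied SE 0.30), with p 0.0098 and q 0.875 in the authors' deposited table. TLR3, the endosomal receptor of double-stranded RNA, had one at -0.56 (p 0.0331) and TRAF3 one at -2.78 (p 0.0399) in that deposited table of the authors, both with a q of 0.997. These 3 sequences were lower in BB608 and none was called.

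Other interferon-induced genes were divided evenly, with 18 of 35 expressed ones higher. LGALS3BP was the most abundant, at 227 and 259 FPKM, before WARS at 67.9 and 72.5 FPKM and, in DMSO, TRIM22 at 46.2 and 40.6 FPKM. PLSCR1, at 44.7 and 42.6 FPKM, was above TRIM22 in BB608. UBE2L6, the conjugating enzyme for ISG15, had 1 coding sequence lower, at 20.9 and 16.5 FPKM (p 0.0441), and 1 higher, at 2.01 and 5.30 FPKM (p 0.0111), in the authors' deposited table. TRIM21 had a coding sequence at 2.02 and 0.0527 FPKM (p 0.0244) and GBP4 one at 0.747 and 0.548 FPKM (p 0.0279) in the authors' deposited table.

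Of 31 further antigen presentation genes 21 were expressed, and none of the listed MHC class II genes was among them. Among the 21, 7 were higher and 14 lower, with a median of -0.02, beside 57.6% higher and 0.03 for all kept genes. With the median log2 ratio of all kept genes set to 0, 4 of the 21 were higher. In the authors' deposited table none of 85 tested coding sequences had an unadjusted p under 0.05, against 3.31% of all tested coding sequences. The ER chaperone genes CANX, at 605 and 601 FPKM, and CALR, at 376 and 381 FPKM, were the most abundant, before the proteasome activator gene PSME2 at 304 and 300.2 FPKM.

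The labelled cell type was checked against markers. All 10 squamous epithelial markers were expressed, from 8.44 FPKM for DSG3 to 2334 FPKM for KRT5 in DMSO. Of 7 leukocyte markers, CD3E and FCGR3A were listed at 0 in both groups and PTPRC had 0.0065 and 0.0013 FPKM. The leukocyte sum of 25.3 and 22.6 FPKM was mostly CD68, at 22.9 and 20.3 FPKM, and CD14 had 2.23 and 2.24 FPKM. Plasmacytoid dendritic cell markers summed to 0.0283 and 0.0176 FPKM, and fibroblast markers to 0.57 and 0.69 FPKM. Endothelial markers summed to 3.88 and 4.16 FPKM, nearly all of it CDH5.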

How the data were processed

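RNA of 6 libraries, 3 per group, was sequenced after ribosomal RNA removal with a stranded kit, per the labels' protocols. The submitters' processing notes name build hg19, Cuffdiff, Cufflinks 2.2.1 and TopHat2 2.0.11; for the gene annotation, nothing is stated. The authors' deposited table holds 82428 coding sequences with 1 pooled FPKM value per group, a q-value, a p-value and a test statistic, which is a score. Cufflinks divides a gene's reads among coding sequences by a model, so single sequences can be estimated at almost 0, and depth is unknown. The table names its groups DMSO_subset and BB608_subset, which is not explained. No value per library was analysed, and p-values rest on the authors' model.

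Rows were summed per gene name. A gene was kept with a tested row, no failed row, 1 gene name and a sum of 1 FPKM or more in either group. Folds are BB608 over DMSO with no pseudocount. Calls use the authors' q under 0.05, adjusted over all tested rows. Their smallest p is 5e-05. The implied SE is the fold divided by the authors' statistic times 1.73, the median ratio of the normal quantile of their p to that statistic over 32512 rows; rows under 0.001 FPKM in a group have none. The adjustment and the SE were run on data simulated from the implied SEs themselves. That checks the arithmetic and cannot show how well the SE fits the authors' p-values. For sequences low in 1 group it can fit poorly in either direction. The IFNAR2 sequence had a log2 fold of 6.20, an implied SE of 4.72 and a Cuffdiff p of 0.0172. The TRIM21 sequence had -5.26, an implied SE of 1.31 and a Cuffdiff p of 0.0244. The foreseen limma fit needs values per library and was not used. All members are named; of other list genes, those at an unadjusted p under 0.05 and the 3 most abundant per list were named. One gene of the signalling list is not reported here. Members and lists were chosen with earlier results of these data known. Promoter motifs were searched on both strands with Python 3.11.15.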

Additional observations from a re-analysis of the deposited data

How the results depend on the processing

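No paired analysis was possible because values are pooled per group, and leaving out each replicate and a replicate block were not run for that reason. The count of called coding sequences of the genes was 0 with the authors' q in their deposited table. It was also 0 with a mean of at least 1 or 5 FPKM, with normal p-values and, chosen after seeing the data, with genes of 1 tested coding sequence adjusted alone. The same settings called 121, 83, 157 and 122 coding sequences of all genes. The median log2 fold of the genes stayed between -0.05 and 0.01 over 9 alternatives, of which that without near-zero coding sequences was not planned. Between 11 and 14 genes were higher in BB608, or 37.9% to 52.2%. The gene sets differed, with 14 of 33 higher without a filter and 12 of 23 at 5 FPKM or more. Of 203 alternative folds over 29 genes, 193 moved by no more than 1 implied SE of the most abundant coding sequence, 10 moved further or had no such error, and 14 changed sign, in 10 genes. The 2 genes that changed sign under a scaling, IFIT3 and TAP2, had folds of at most 0.018. MX1 turned from -0.81 to 0.65 without coding sequences near 0 in 1 group, a setting chosen after seeing the data. With the most abundant coding sequence in place of the gene sum, IRF7 had -1.28, OAS3 0.12 and IFI6 -0.38; the cause was not tested. Pooled FPKM values carry no depth, so the least detectable change is known only through the implied SE.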
